A study of Mus musculus with 12 samples.

Results

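The vascular miRNAs described here are 10 mature miRNAs from 5 hairpins at 3 places in the mouse genome. The endothelial pair is mmu-miR-126a-3p and mmu-miR-126a-5p. The mural members, made in the smooth muscle cells and pericytes of the vessel wall, are mmu-miR-143-3p, mmu-miR-143-5p, mmu-miR-145a-5p and mmu-miR-145a-3p. The third locus makes mmu-miR-195a-5p, mmu-miR-195a-3p, mmu-miR-497a-5p and mmu-miR-497a-3p. It is listed with the others as vascular, but which cells make it was not examined here. All 10 members were taken by name from the 1915 mature miRNAs counted in every library, and each had 1 row. The list names no threshold on values, but it was drawn up with earlier results of these data known. Small RNA was sequenced from the striatum in 12 libraries, 4 groups of 3. R6/2 animals, of the line B6CBA-Tg(HDexon1)62Gpb/3J, are a model of Huntington's disease that carries an expanded first exon of the human huntingtin gene. They received an adeno-associated virus (AAV) with a short hairpin RNA against TRAX (shTRAX) in the first group, and an AAV with a control hairpin in the second. Wild-type (WT) mice received the shTRAX AAV in the third group and the control AAV in the fourth. Every group carries the strain label B6CBAFI/J and had an AAV put into the striatum on both sides at 5 weeks of age, with dissection at 10.5 weeks, so no group was free of surgery and virus. The promoter of the hairpin constructs and the cells they reached are not stated in the labels. TRAX mRNA is not measured by small RNA libraries, so knockdown was not checked.

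miR-126 lies in the endothelial gene Egfl7 and is known for sustaining growth factor signalling in endothelial cells, where it acts against the inhibitors Spred1 and Pik3r2. miR-143 and miR-145 are made from 1 primary transcript and are known for keeping vascular smooth muscle in its contractile state. miR-195 and miR-497 belong to the miR-15/16 family, which pairs with mRNAs of cell cycle genes such as the D-type cyclins. TRAX and its partner translin form a nuclease that acts on small RNAs, among them the passenger strand in the RNA-induced silencing complex.

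Mature sequences of 5 of the 10 members were taken from RefSeq (GRCm38.p6), with the seed, bases 2 to 8, in capitals. They are shown because the seed separates the loci: miR-195a-5p and miR-497a-5p share 1 seed, which is also that of the far more abundant miR-16-5p, given as the last line.
miR-126a-3p: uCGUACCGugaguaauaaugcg
miR-195a-5p: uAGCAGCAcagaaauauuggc
miR-195a-3p: cCAAUAUUggcugugcugcucc
miR-497a-5p: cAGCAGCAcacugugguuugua
miR-497a-3p: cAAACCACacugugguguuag
miR-16-5p: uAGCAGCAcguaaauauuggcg

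Over the 21 bases of miR-195a-5p, counted from 1 at its 5′ end, miR-16-5p differed at 2 (A10G and G11U, the base of miR-195a-5p first) and miR-497a-5p at 9. A read of miR-195a-5p is therefore told from miR-16-5p by a pair of neighbouring bases. Per library, miR-195a-5p counts were 1.30% to 1.82% of miR-16-5p counts in R6/2 and 1.19% to 1.48% in WT. Those ranges overlapped. How mismatches were treated in the authors' counting is not stated in the labels or headers. The hairpins of the loci whose members passed a test are given next, in RefSeq's letters, since both arms are read from them. Mature miRNAs that RefSeq lists are in capitals. It lists no miR-126a-5p, so that arm stays in lower case.
Mir126a: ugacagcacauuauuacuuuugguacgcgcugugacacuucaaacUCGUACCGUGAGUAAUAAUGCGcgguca
Mir195a: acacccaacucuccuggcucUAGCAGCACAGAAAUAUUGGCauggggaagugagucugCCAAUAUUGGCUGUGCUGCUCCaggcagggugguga
Mir497: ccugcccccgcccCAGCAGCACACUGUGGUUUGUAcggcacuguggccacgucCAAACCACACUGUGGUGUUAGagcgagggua

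In GRCm38 the Mir126a hairpin lies at chr2:26591357-26591429 on the plus strand, inside Egfl7, where it overlaps an exon of at least 1 annotated transcript. The Mir497 hairpin lies at chr11:70234717-70234800 and the Mir195a hairpin at chr11:70235042-70235135, both on the plus strand and 241 bases apart. No other GENCODE gene overlaps Mir195a, and Mir497 is overlapped by Mir497b on the opposite strand. Mir143 and Mir145a lie 1301 bases apart on chromosome 18, inside the RefSeq span of Carmn, a long noncoding RNA of smooth muscle. Near-copies and opposite-strand miRNAs took few counts. miR-126b-5p had 0 counts in every library, miR-126b-3p 0 to 4, miR-145b 5 to 22, miR-195b 0 to 5 and miR-497b 3 to 7.

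Levels are counts per 1000000 (CPM) after trimmed-mean (TMM) scaling of each library. The kept counts summed to 13849777 to 16907910 per library, and 1033 to 1106 miRNAs had at least 1 count. All mature miRNAs are about the same length, so CPM was not divided by length, and differences in ligation between sequences were not corrected. The third library of R6/2 shTRAX mice stood apart from the rest of its group. Over 689 miRNAs, the interquartile range of its log2 difference from the average of its 2 group mates was 1.10, against 0.230 to 0.672 for the other 11 libraries. Where leaving it out changed a member's call, or moved its genotype difference over both AAVs by more than 1.5 times, the value without it is given.

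The 10 members differed widely in level. miR-126a-3p averaged 20454 CPM over the 12 libraries and ranked 10 of 1915 mature miRNAs, with 17440 CPM in the lowest library and 23242 CPM in the highest. miR-126a-5p, its passenger arm, averaged 7149 CPM (rank 30), and miR-143-3p averaged 5400.0 CPM (rank 35). The ranges of miR-126a-5p and miR-143-3p overlapped across libraries. The next tier held the guide arms miR-145a-5p at 494 CPM (rank 118), miR-195a-5p at 464 CPM (rank 121) and miR-497a-5p at 308 CPM, whose ranges also overlapped each other. The passenger arms were lower: miR-145a-3p averaged 47.4 CPM, miR-143-5p 20.1 CPM, miR-195a-3p 9.06 CPM and miR-497a-3p 2.50 CPM. miR-497a-3p rests on 14 to 53 counts per library, so its values carry the most counting error of the 10. The members with the widest spread were miR-497a-3p, whose highest library was 3.70 times its lowest, miR-143-5p (2.54 times) and miR-497a-5p (2.32 times), while miR-126a-3p varied least (1.33 times).

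**Figure D1:**
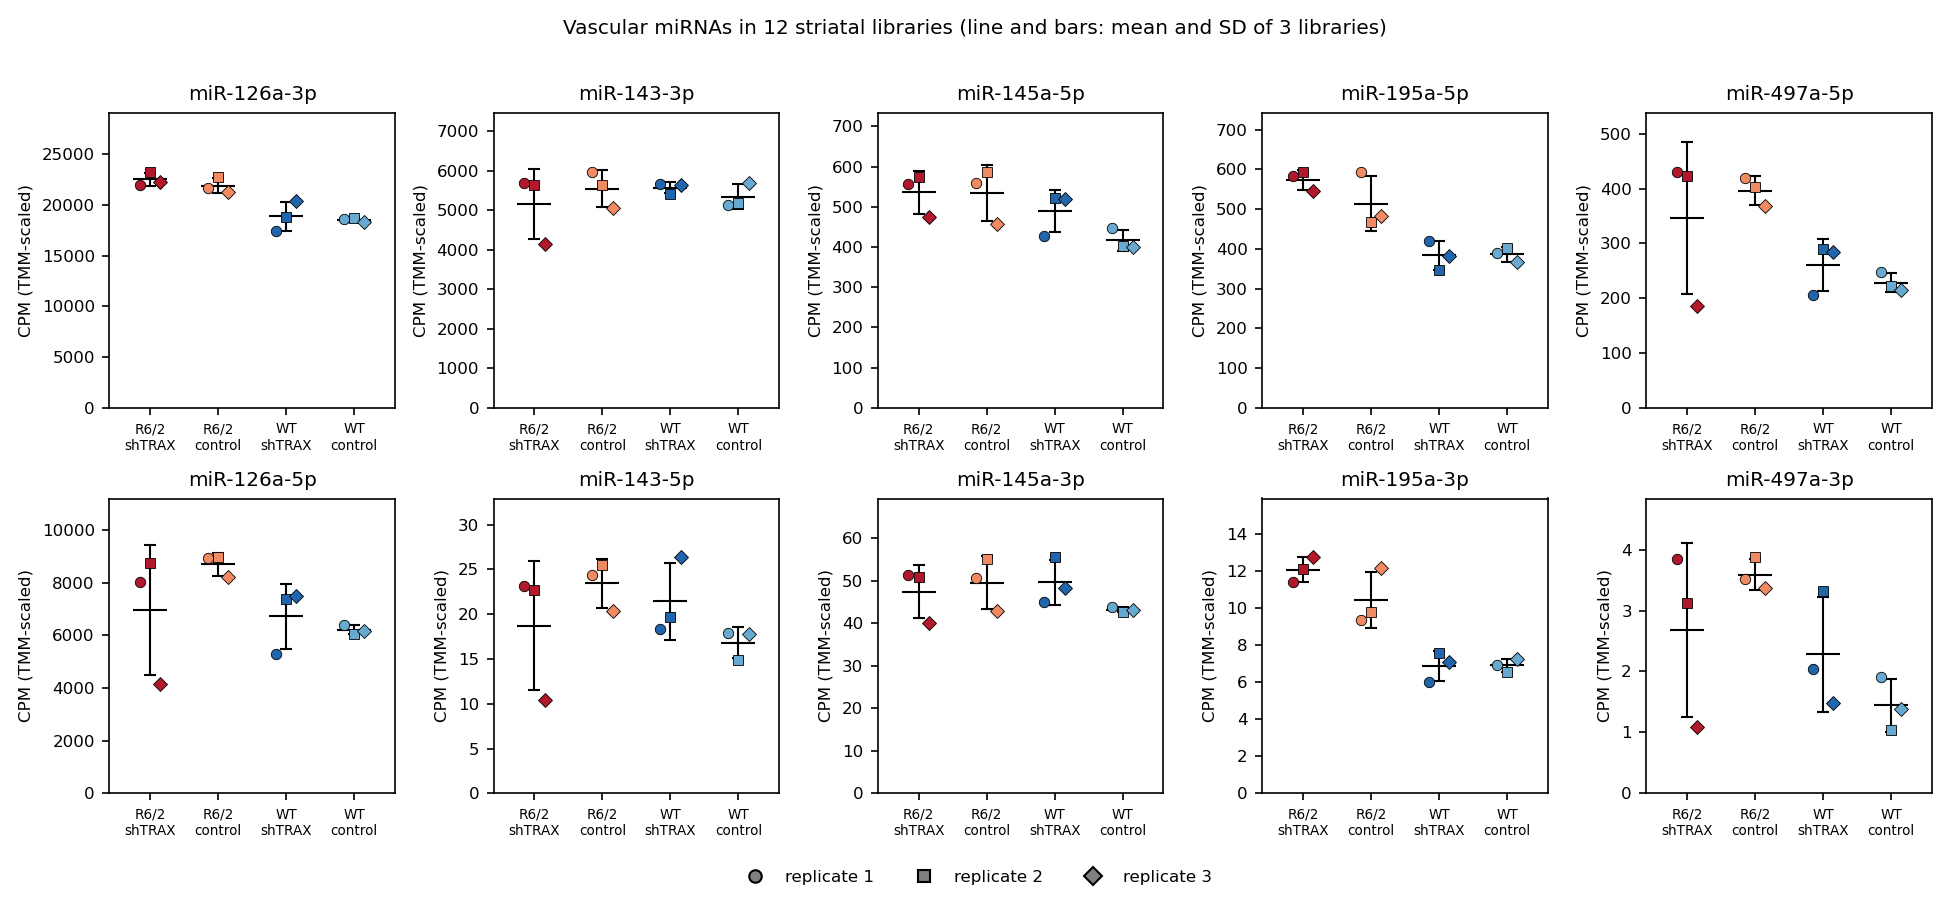
CPM of each member in the 12 libraries (linear axes from 0), a panel per mature miRNA, with the guide arm above the passenger arm of each hairpin. Symbols are replicates 1 to 3, the line and bars are mean and SD of 3 libraries. miR-195a-5p lies between 467 and 593 CPM in all 6 R6/2 libraries and between 348 and 420 CPM in all 6 WT libraries, and replicate 3 of R6/2 shTRAX is the lowest library for miR-126a-5p (4157 CPM) and miR-497a-5p (186 CPM).

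The 4 groups allow R6/2 to be set against WT under each AAV, and shTRAX against control AAV in each genotype. The authors deposited R6/2 and WT counts separately, each with a comparison of shTRAX against control AAV only. Any difference in processing between the 2 deposits cannot be told apart from genotype. The miR-195a and miR-497a locus was higher in R6/2 striatum than in WT striatum. Averaged over both AAVs, 3 of its 4 members passed the test, as did miR-126a-3p, and no arm of miR-143 or miR-145a did. These 4 calls of 10 members compare with 13.5% of the 689 tested miRNAs called higher and 22.9% called in either direction (edgeR quasi-likelihood test, Benjamini-Hochberg adjusted p under 0.05 over all 689). A log2 difference above 0 was seen for 9 of 10 members, against 56% of all tested miRNAs. Arms of a hairpin share a precursor, and the hairpins of miR-195a and miR-497a are neighbours, as are those of miR-143 and miR-145a. Counts of members, here and below, are therefore not counts of independent units. The 4 called members all had passed the filter on low counts in every comparison, as had the other 6. In bulk tissue, fewer cells of a type and less RNA per cell cannot be told apart, which holds for every difference given here. Nothing in the labels ties replicates to separate animals, so p-values measure the spread between these libraries.

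miR-195a-5p, the guide arm, had 582, 593 and 546 CPM in R6/2 shTRAX libraries, 593, 467 and 481 CPM in R6/2 control libraries, 420, 348 and 382 CPM in WT shTRAX libraries and 390, 402 and 366 CPM in WT control libraries. Every R6/2 library was above every WT library, which held for 3 members (miR-126a-3p and both arms of miR-195a) against 8.42% of tested miRNAs. It averaged 544 ± 57.0 CPM in R6/2 and 384 ± 25.7 CPM in WT (SD, n = 6 each), a log2 difference of 0.50 ± 0.09 (SE, edgeR adjusted p = 0.0026). Under shTRAX AAV the log2 difference was 0.58 ± 0.13 (edgeR adjusted p = 0.0175), and it lost its call without WT shTRAX replicate 2 (0.52, edgeR adjusted p = 0.0527). Under control AAV it was 0.41 ± 0.13 and missed the threshold (edgeR adjusted p = 0.0616), and it was called without R6/2 shTRAX replicate 3 (0.43 ± 0.09, edgeR adjusted p = 0.00749). It was also called there without R6/2 shTRAX replicate 1, WT shTRAX replicate 1 or WT shTRAX replicate 2.

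miR-195a-3p, the passenger arm of the same hairpin, had 11.4, 12.1 and 12.7 CPM in R6/2 shTRAX libraries, 9.32, 9.79 and 12.1 CPM in R6/2 control libraries, 6.0, 7.55 and 7.07 CPM in WT shTRAX libraries and 6.92, 6.54 and 7.23 CPM in WT control libraries. The lowest R6/2 library lay above the highest WT library. Its log2 difference was 0.70 ± 0.11 over both AAVs (edgeR adjusted p = 0.0013), 0.81 ± 0.16 under shTRAX AAV (edgeR adjusted p = 0.0119) and 0.59 ± 0.16 under control AAV (edgeR adjusted p = 0.0370). It was the 1 member called under control AAV, where 7.26% of 689 miRNAs were called higher and 10.6% in either direction. Under shTRAX AAV it was 1 of 2 called, where 7.98% were called higher and 13.8% in either direction. The control AAV call was lost on leaving out any of 7 libraries, namely R6/2 control replicate 2 or 3, R6/2 shTRAX replicate 2, any WT control replicate or WT shTRAX replicate 3, with adjusted p of 0.0523 to 0.162 and log2 differences of 0.49 to 0.67.

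miR-497a-5p, the guide arm of the neighbouring hairpin, had 430, 423 and 186 CPM in R6/2 shTRAX libraries, 419, 403 and 367 CPM in R6/2 control libraries, 205, 289 and 285 CPM in WT shTRAX libraries and 248, 222 and 216 CPM in WT control libraries. All R6/2 libraries but the third of shTRAX were above all WT libraries, and that library was below all of them. The log2 difference over both AAVs was 0.60 ± 0.19 (edgeR adjusted p = 0.0392). This call is a marginal one: it was lost on leaving out any of the other 11 libraries (adjusted p 0.0555 to 0.101), while without R6/2 shTRAX replicate 3 the difference was 0.76 ± 0.10 (edgeR adjusted p = 0.000129). Under control AAV the difference was 0.79 ± 0.27 (edgeR adjusted p = 0.0904) with that library in the fit and 0.81 ± 0.13 (edgeR adjusted p = 0.00108) without it, and under shTRAX AAV 0.41 ± 0.27 (edgeR adjusted p = 0.306) with that library and 0.72 ± 0.14 (edgeR adjusted p = 0.00572) without it.

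miR-497a-3p, its passenger arm, had 53, 45 and 14 counts in R6/2 shTRAX libraries, 48, 53 and 47 in R6/2 control libraries, 32, 48 and 23 in WT shTRAX libraries and 33, 16 and 22 in WT control libraries. Its log2 difference was 0.77 ± 0.30 over both AAVs (edgeR adjusted p = 0.0921), and 0.97 ± 0.22 (edgeR adjusted p = 0.00636) without R6/2 shTRAX replicate 3. Under control AAV it was 1.30 ± 0.43 (edgeR adjusted p = 0.0832), and 1.32 ± 0.31 (edgeR adjusted p = 0.0095) without that library in the fit. Under shTRAX AAV it was 0.24 ± 0.42, and 0.61 ± 0.32 without it, with no call in either fit. Summed over its 4 arms, the locus held 935 ± 164 CPM in R6/2 shTRAX libraries, 924 ± 87.6 CPM in R6/2 control libraries, 652 ± 21.0 CPM in WT shTRAX libraries and 622 ± 29.2 CPM in WT control libraries (SD, n = 3 each). The median log2 difference of the 4 members over both AAVs was 0.65, against 0.05 over all 689 tested miRNAs.

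miR-126a-3p, the endothelial guide arm, differed by less but with a narrow spread. It had 21971, 23242 and 22287 CPM in R6/2 shTRAX libraries, 21657, 22776 and 21281 CPM in R6/2 control libraries, 17440, 18805 and 20359 CPM in WT shTRAX libraries and 18598, 18699 and 18331 CPM in WT control libraries. Every R6/2 library was above every WT library. The log2 difference was 0.25 ± 0.06 over both AAVs (edgeR adjusted p = 0.0105), a mean of 22202 ± 723 CPM in R6/2 and 18705 ± 948 CPM in WT (SD, n = 6 each). Under each AAV alone it missed the threshold, at 0.25 ± 0.08 under shTRAX AAV (edgeR adjusted p = 0.0625) and 0.24 ± 0.08 under control AAV (edgeR adjusted p = 0.0936). Without R6/2 shTRAX replicate 3 both were called, at 0.26 ± 0.07 under shTRAX AAV (edgeR adjusted p = 0.0245) and 0.26 ± 0.06 under control AAV (edgeR adjusted p = 0.0120). The control AAV difference was also called without WT shTRAX replicate 1.

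miR-126a-5p, from the other arm of that hairpin, had 8013, 8752 and 4157 CPM in R6/2 shTRAX libraries, 8921, 8957 and 8201 CPM in R6/2 control libraries, 5299, 7383 and 7493 CPM in WT shTRAX libraries and 6393, 6063 and 6157 CPM in WT control libraries. The R6/2 control libraries were all above the WT control libraries, while the shTRAX groups overlapped. Its log2 difference over both AAVs was 0.27 ± 0.16 (edgeR adjusted p = 0.280), and 0.41 ± 0.09 (edgeR adjusted p = 0.00396) without R6/2 shTRAX replicate 3. Under control AAV it was 0.49 ± 0.23 (edgeR adjusted p = 0.229), and 0.51 ± 0.12 (edgeR adjusted p = 0.0095) without that library.

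The mural locus gave no call with all 12 libraries. miR-143-3p, its most abundant arm, had 5679, 5633 and 4138 CPM in R6/2 shTRAX libraries, 5964, 5627 and 5042 CPM in R6/2 control libraries, 5665, 5398 and 5637 CPM in WT shTRAX libraries and 5140, 5182 and 5695 CPM in WT control libraries. The groups overlapped under both AAVs. Its log2 difference over both AAVs was -0.03 ± 0.09 (edgeR adjusted p = 0.857) and 0.05 ± 0.05 (edgeR adjusted p = 0.478) without R6/2 shTRAX replicate 3, and the summed locus held 5752 ± 943 CPM in R6/2 shTRAX, 6152 ± 533 CPM in R6/2 control, 6127 ± 121 CPM in WT shTRAX and 5815 ± 294 CPM in WT control libraries (SD, n = 3 each).

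miR-145a-5p, known in smooth muscle for lowering the transcription factor Klf4, had 557, 574 and 475 CPM in R6/2 shTRAX libraries, 560, 587 and 456 CPM in R6/2 control libraries, 428, 521 and 519 CPM in WT shTRAX libraries and 447, 403 and 400 CPM in WT control libraries. The R6/2 control libraries were all above the WT control libraries, by 456 against 447 CPM at the nearest, and the shTRAX groups overlapped. Its log2 difference was 0.24 ± 0.10 over both AAVs (edgeR adjusted p = 0.0971), and 0.29 ± 0.08 (edgeR adjusted p = 0.0197) without R6/2 shTRAX replicate 3. Under control AAV it was 0.36 ± 0.14 (edgeR adjusted p = 0.133), and 0.38 ± 0.11 (edgeR adjusted p = 0.0314) without that library. The passenger arm miR-143-5p had a log2 difference over both AAVs of 0.14 ± 0.19 (edgeR adjusted p = 0.654), and of 0.30 ± 0.11 (edgeR adjusted p = 0.0557) without that library. Under control AAV it was 0.48 ± 0.27 (edgeR adjusted p = 0.329), and 0.49 ± 0.15 (edgeR adjusted p = 0.0294) without it. The passenger arm miR-145a-3p had 0.07 ± 0.10 over both AAVs (edgeR adjusted p = 0.702), and 0.13 ± 0.09 (edgeR adjusted p = 0.266) without it.

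Under control AAV alone, 8 of 10 members (all but miR-143-3p and miR-145a-3p) had every R6/2 library above every WT library, against 27.3% of tested miRNAs. All 10 log2 differences were above 0 there, from 0.05 to 1.30, against 52.8% of tested miRNAs. The number called differed between fits, and the reason was not tested. It was 1 in the fit over 12 libraries, and 8 both when the 6 control AAV libraries were fitted alone, where 35.2% of 660 miRNAs were called in either direction, and when R6/2 shTRAX replicate 3 was left out, where 30% of 700 were. DESeq2 called 4 of the 10, against 15.4% of 689 miRNAs. Under shTRAX AAV 3 members (miR-126a-3p and both arms of miR-195a) did not overlap, against 17.7% of tested miRNAs, 7 of 10 differences were above 0 (53% of tested miRNAs), and the calls numbered 2, or 4 without R6/2 shTRAX replicate 3, where 20.1% of 700 miRNAs were called in either direction. Over both AAVs 7 members were called without that library, where 36.4% of 700 miRNAs were. With the 6 shTRAX libraries fitted alone no member was called (edgeR), with 2 at an unadjusted p under 0.05, and 0.308% of 650 miRNAs were called.

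**Figure D2:**
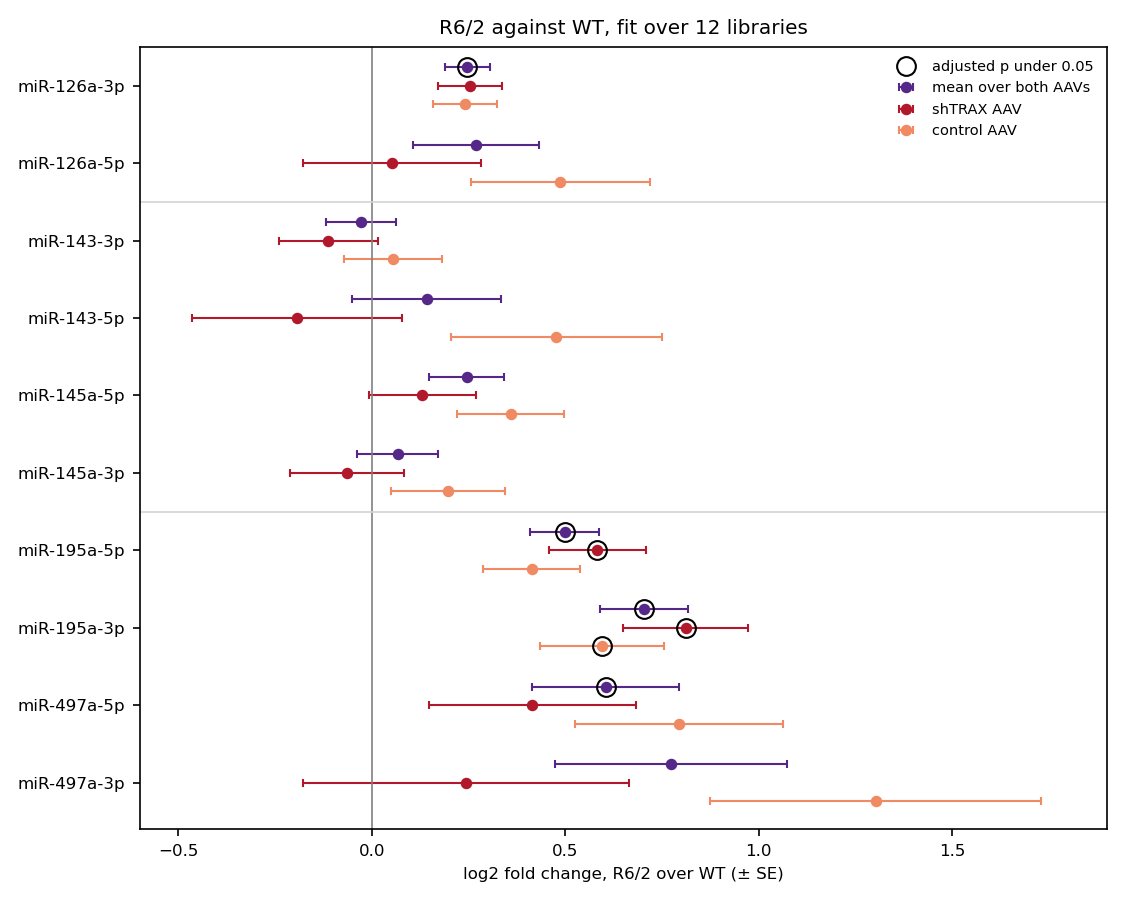
Log2 fold change (± SE) of each member, R6/2 over WT, from the edgeR fit over 12 libraries, as the mean over both AAVs, under shTRAX AAV and under control AAV. Circles mark adjusted p under 0.05: both arms of miR-195a, miR-126a-3p and miR-497a-5p are circled for the mean over both AAVs, and no arm of miR-143 or miR-145a is circled in any comparison.

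Whether miR-126a-3p, miR-143-3p and miR-195a-5p, an arm from each locus, differed from each other in their response was tested on their log2 ratios. These are taken within each library, which needs no scaling between libraries. Genotype labels were permuted within AAV (exact two-sided permutation test, 400 arrangements, smallest p 0.005, adjusted over 16 tests). The ratio of miR-143-3p to miR-126a-3p was lower in R6/2, by a log2 difference of -0.29 (exact permutation p = 0.005, adjusted p = 0.0267). It was -2.06 ± 0.20 in R6/2 and -1.78 ± 0.10 in WT (SD, n = 6 each), and the groups did not overlap, with -1.860 the highest R6/2 value and -1.855 the lowest WT value. The ratio of miR-195a-5p to miR-143-3p was higher in R6/2, at -3.29 ± 0.22 in R6/2 and -3.83 ± 0.12 in WT, a difference of 0.53 (exact permutation p = 0.005, adjusted p = 0.0267), and again no R6/2 library overlapped a WT library. The ratio of miR-195a-5p to miR-126a-3p differed by 0.25 and missed the threshold after adjustment (exact permutation p = 0.025, adjusted p = 0.1). So miR-126a-3p and miR-195a-5p both moved against miR-143-3p in R6/2, by tests of the differences themselves. Without R6/2 shTRAX replicate 3 these differences were -0.21 and 0.48 (exact permutation, adjusted p = 0.04 for both). No ratio between loci was tested for miR-145a-5p, the other mural guide arm. The log2 difference of miR-145a-5p over both AAVs was 0.24 ± 0.10, beside 0.25 ± 0.06 for miR-126a-3p (edgeR). The tests are thus of miR-143-3p and not of the mural locus as a whole.

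Those calls have little room, since 3 tests at the smallest p give an adjusted p of 0.0267. Leaving out 1 library lost the call of miR-143-3p to miR-126a-3p for 7 of the 12 libraries (R6/2 control replicate 3, any WT control replicate and any WT shTRAX replicate, adjusted p 0.0533 to 0.107, difference -0.31 to -0.25). It lost that of miR-195a-5p to miR-143-3p for 3 libraries (R6/2 control replicate 3, WT control replicates 1 and 3, adjusted p 0.0533, difference 0.49 to 0.55). The ratio of miR-195a-5p to miR-126a-3p gained a call without R6/2 control replicate 2 (0.29, adjusted p = 0.0267). Leaving out 1 library leaves fewer arrangements, each a larger part of the total, and the adjusted p also moves with the other ratios. Not every omission raised it: without R6/2 control replicate 2 both called ratios kept an adjusted p of 0.0267 (exact permutation). Whether a ratio rests on the library left out was not tested. For both called ratios of this paragraph, R6/2 and WT libraries did not overlap over all 12 libraries. They therefore cannot overlap with 1 left out, which adds no support.

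The 5p to 3p ratio of a hairpin asks whether its arms moved together. For miR-145a its geometric mean was 11.3 in R6/2 shTRAX and 10.8 in R6/2 control libraries, against 9.85 in WT shTRAX and 9.63 in WT control libraries. R6/2 differed from WT by a log2 difference of 0.18 (exact permutation p = 0.005, adjusted p = 0.0267), with 1 WT library (shTRAX replicate 3, 3.42 on the log2 scale) inside the R6/2 range of 3.41 to 3.56. That call was lost for 7 of 12 libraries left out, namely R6/2 control replicates 1 and 3, any R6/2 shTRAX replicate and WT control replicates 1 and 3 (adjusted p 0.0533 to 0.107, difference 0.17 to 0.20). Fewer arrangements apply here too, and whether this ratio rests on the library left out was not tested. The other 4 hairpins gave no call. The log2 differences were -0.01 for miR-126a, 0.14 for miR-143, -0.20 for miR-195a and -0.16 for miR-497a (exact permutation, adjusted p 0.56 to 0.995).

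**Figure D3:**
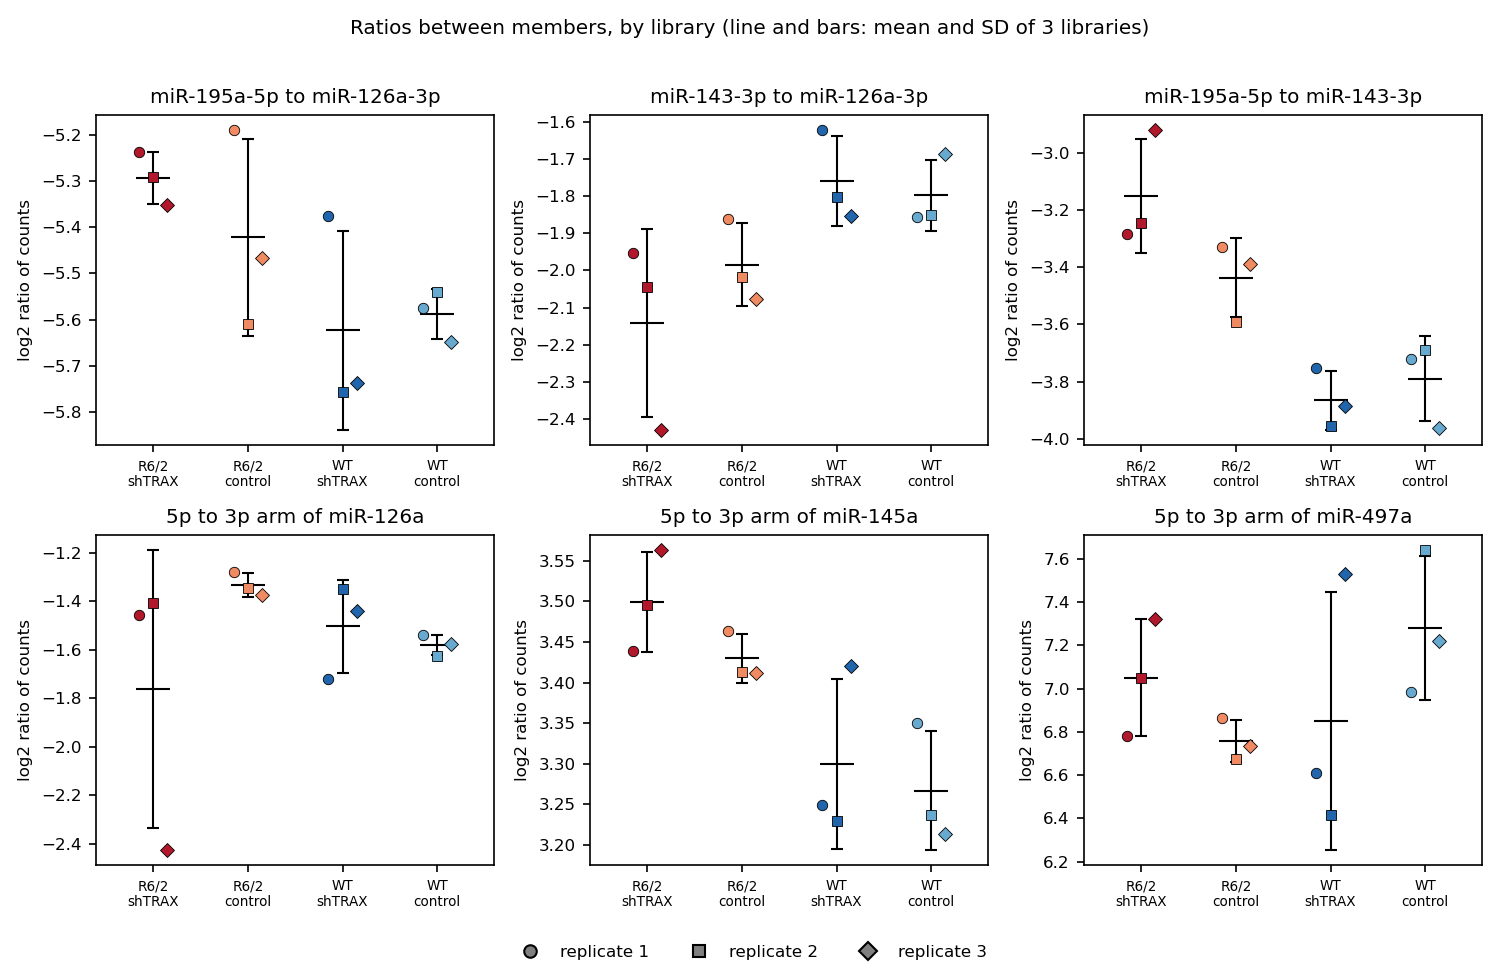
Log2 ratios of counts within each library, with symbols for replicates and mean and SD of 3 libraries (axes do not start at 0). miR-143-3p to miR-126a-3p lies at -1.86 or lower in all 6 R6/2 libraries, miR-195a-5p to miR-143-3p lies at -3.59 or higher there and at -3.69 or lower in WT, and replicate 3 of R6/2 shTRAX has a 5p to 3p ratio of miR-126a of -2.42, below the other 11 libraries.

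The second question of the design is what the TRAX hairpin changed. No member passed the test in either genotype. In R6/2, shTRAX against control AAV gave log2 differences of -0.39 to 0.23 over the 10 members, with a lowest adjusted p of 0.498 (edgeR) and no call, against 0% of 651 miRNAs called. Without adjustment 0 members passed 0.05, against 10.4% of miRNAs. miR-195a-5p was at 0.19 and miR-497a-5p at -0.16 there. In WT the differences were -0.01 to 0.64, with a lowest adjusted p of 0.641 (edgeR) and no call, against 0.15% of 665 miRNAs called. Again 0 members passed 0.05 without adjustment, against 7.52% of miRNAs. Every WT shTRAX library was above every WT control library for miR-143-5p and miR-145a-3p, against 7.07% of tested miRNAs. DESeq2 called 0 of 10 in both genotypes, against 2% of miRNAs in R6/2 and 0.602% in WT, and limma on log2(RPM + 1) also 0, against 0% in R6/2 and 0.15% in WT. Leaving out WT shTRAX replicate 1 gave 1 call in WT, miR-126a-5p (0.23, edgeR adjusted p = 0.0330), where 8.41% of 678 miRNAs were called. In the authors' deposited table the lowest adjusted p of the 10 was 0.702 in R6/2 and 0.994 in WT.

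The shTRAX effect was also set against itself between genotypes. The difference of the effects was -1.06 to 0.22 over the 10 members, with 0 called (edgeR, lowest adjusted p 0.469), against 0% of 689 miRNAs. DESeq2 and limma also called 0 members, against 0.29% and 0% of miRNAs. Without adjustment 0 members passed 0.05, against 8.85% of miRNAs. None of the 8 ratios passed the test between shTRAX and control AAV (exact permutation within genotype, adjusted p 0.613 to 0.995). These tests bound some members less than others, and both arms of miR-497a, miR-143-5p and miR-126a-5p little. The SE of a member's shTRAX effect in R6/2 was 0.09 for miR-126a-3p on the log2 scale. It was 0.28 for miR-126a-5p, 0.33 for miR-143-5p, 0.33 for miR-497a-5p and 0.45 for miR-497a-3p. Without R6/2 shTRAX replicate 3 these SEs were 0.05 for miR-126a-3p, 0.06 for miR-126a-5p and 0.11 for miR-143-5p. They were 0.07 for miR-497a-5p and 0.17 for miR-497a-3p.

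**Figure D4:**
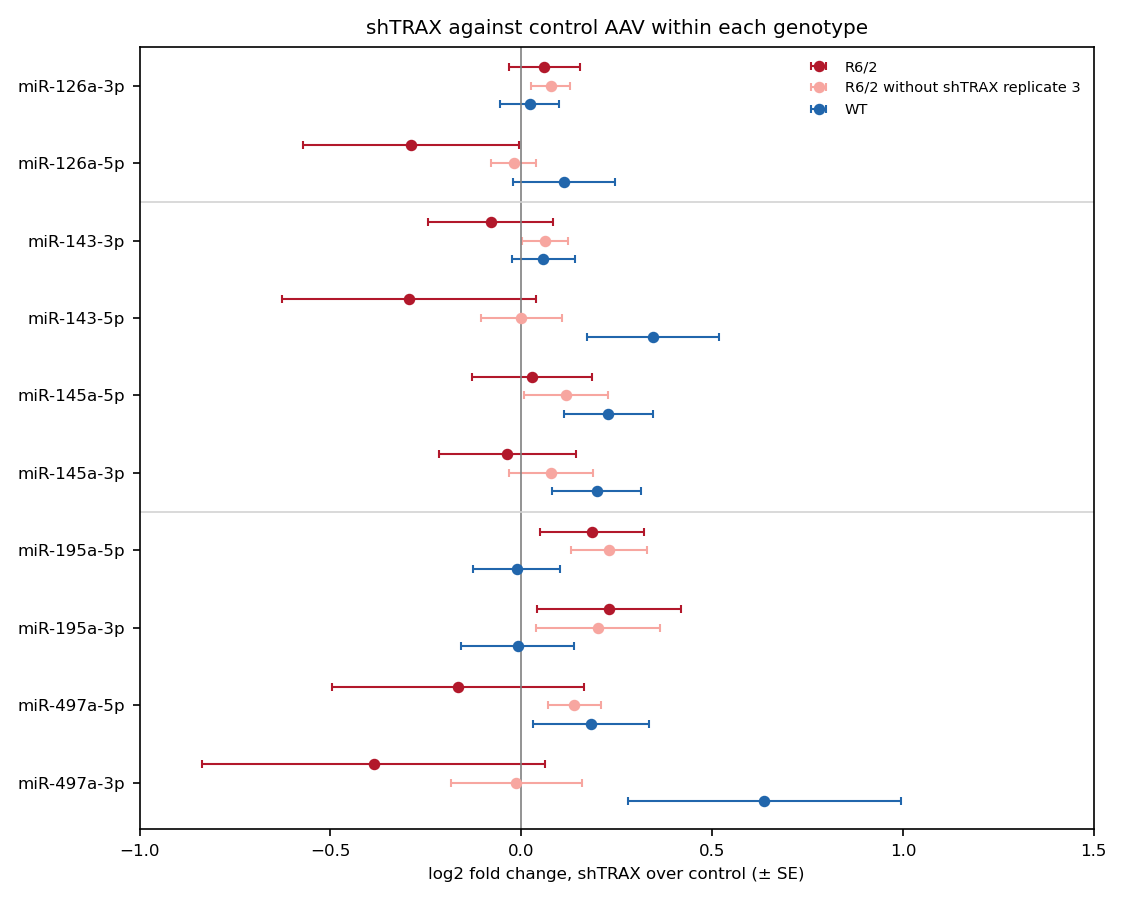
Log2 fold change (± SE) of each member, shTRAX over control AAV, in R6/2, in R6/2 without shTRAX replicate 3, and in WT (edgeR, 6, 5 and 6 libraries). No adjusted p is under 0.05, and leaving out the library takes miR-126a-5p to -0.02 from -0.29 and miR-497a-5p to 0.14 from -0.16.

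R6/2 shTRAX replicate 3 parted the members of single loci. Set against the average of its 2 group mates, it held 98.6% of their miR-126a-3p but 49.6% of their miR-126a-5p, and 92.9% of their miR-195a-5p and 108% of their miR-195a-3p but 43.6% of their miR-497a-5p and 31.2% of their miR-497a-3p. In the mural locus it held 73.2% of their miR-143-3p, 45.3% of their miR-143-5p, 84.0% of their miR-145a-5p and 78.6% of their miR-145a-3p. The members' log2 deviations ran from -1.32 to 0.11, and 9 of 10 were below 0. That count does not set the library apart, since it was also 9 in R6/2 control replicate 3. It was 8 in WT control replicate 2 and in WT shTRAX replicate 1. Over 689 miRNAs the same deviation had a median near 0 (-0.004) and 5th and 95th percentiles of -1.34 and 1.81, so none of the 10 lay outside that range. miR-497a-5p was 34.0% of miR-195a-5p in this library, against 71.3% and 73.9% in the other R6/2 shTRAX libraries, 70.6% to 86.3% in R6/2 control, 48.9% to 83.2% in WT shTRAX and 55.2% to 63.5% in WT control libraries. What sets this library apart was not tested.

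**Figure D5:**
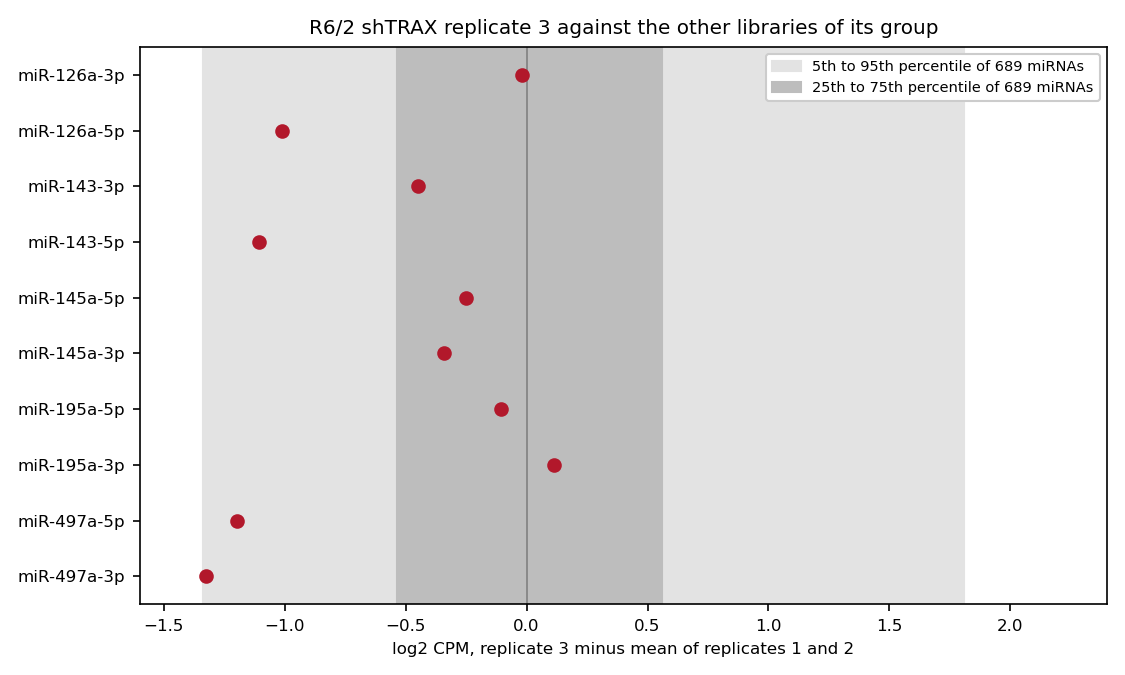
Log2 CPM (+ 0.5) of R6/2 shTRAX replicate 3 minus the mean of replicates 1 and 2, a point per member, with the 5th to 95th and 25th to 75th percentiles of the 689 tested miRNAs shaded. Both arms of miR-497a, miR-126a-5p and miR-143-5p lie below -1, while miR-126a-3p and both arms of miR-195a lie within 0.11 of 0.

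The seed of miR-195a-5p and miR-497a-5p is carried by 10 mature miRNAs in RefSeq, all of them listed in the tables. Of the 8 that are not members, 4 were tested, 3 (miR-6342, miR-6353 and miR-6419) had 0 counts in every library, and miR-195b had at most 5. miR-16-5p held most of the seed's reads, at 35832 CPM in R6/2 shTRAX, 33371 CPM in R6/2 control, 27325 CPM in WT shTRAX and 30457 CPM in WT control libraries (means of 3). It was higher in R6/2 over both AAVs (0.26 ± 0.08, edgeR adjusted p = 0.0449), at 0.21 ± 0.06 without R6/2 shTRAX replicate 3 (edgeR adjusted p = 0.0153). Leaving out any control AAV library, WT shTRAX replicate 2 or WT shTRAX replicate 3 lost the call (adjusted p 0.0526 to 0.0764). Its 42096 CPM in R6/2 shTRAX replicate 3 was its highest value. The other family members did not pass: miR-322-5p (0.30 ± 0.12, edgeR adjusted p = 0.102, called at 0.38 ± 0.09 without that library, edgeR adjusted p = 0.0073), miR-15a-5p (-0.05 ± 0.18) and miR-15b-5p (-0.04 ± 0.15).

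Other miRNAs linked to vessels were read from a list of 19 (oxygen-linked miR-210, the miR-130, miR-152, miR-10, miR-199, miR-296 and miR-322 groups, and copies of members), of which 15 were tested. Over both AAVs 12 of 15 had log2 differences above 0 (56% of all tested miRNAs) and 3 were called higher, a share to be read against 13.5% called higher and 22.9% in either direction over all. miR-152-3p averaged 601 CPM in R6/2 and 426 CPM in WT (0.50 ± 0.10, edgeR adjusted p = 0.00407), miR-130a-3p 289 CPM in R6/2 and 200 CPM in WT (0.53 ± 0.12, edgeR adjusted p = 0.00875), and miR-322-3p 8.82 CPM in R6/2 and 6.45 CPM in WT (0.44 ± 0.13, edgeR adjusted p = 0.0269, lost without WT control replicate 1 at 0.0507). The list's median was 0.20, against 0.05 for all 689. Under control AAV 2 of the 15 were called, miR-152-3p and miR-130a-3p (10.6% of all tested miRNAs), under shTRAX AAV 1 was (13.8%), and shTRAX against control AAV gave no call of this list in either genotype (edgeR).

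Some marker miRNAs of other cells in the dissected tissue differed by genotype as well, and their part in the members' differences was not tested. Over all tested miRNAs 9.43% were called lower and 13.5% higher over both AAVs. Of 6 microglia and leukocyte markers, 5 had log2 differences below 0 over both AAVs and 1 was called, miR-142a-3p (-1.53 ± 0.45, edgeR adjusted p = 0.0282), whose call was lost on leaving out any of 6 libraries (adjusted p 0.0534 to 0.0904). No marker of this list was called under control AAV (edgeR), and the R6/2 and WT sums overlapped. Their summed level was 3233 to 4838 CPM in R6/2 shTRAX, 4102 to 10536 CPM in R6/2 control, 4714 to 18063 CPM in WT shTRAX and 6720 to 15107 CPM in WT control libraries. Choroid plexus and ependyma markers had 7 of 8 differences above 0 and 1 call, miR-1264-5p (0.67 ± 0.16, edgeR adjusted p = 0.0123). That marker was low, at 3.655 CPM in R6/2 and 2.325 CPM in WT. Under control AAV 8 of 8 differences were above 0 with 1 call (7.26% of all tested called higher). Under shTRAX AAV 4 of 8 were, with no call (7.98%). Choroid plexus and ependyma markers summed to 5088 to 6132 CPM in R6/2 shTRAX, 1793 to 8297 CPM in R6/2 control, 1880 to 5670 CPM in WT shTRAX and 1905 to 2275 CPM in WT control libraries. Skeletal and heart muscle markers had 4 of 4 differences below 0 and 3 calls, the lowest of them miR-206-3p (-1.03 ± 0.15, edgeR adjusted p = 0.000701). They summed to 907 to 1199 CPM in R6/2 shTRAX, 1084 to 1239 CPM in R6/2 control, 1110 to 1537 CPM in WT shTRAX and 1337 to 1489 CPM in WT control libraries.

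Neuronal markers had 5 of 5 differences below 0 and 1 call, miR-124-3p (-0.56 ± 0.13, edgeR adjusted p = 0.00875). They summed to 89572 to 94337 CPM in R6/2 shTRAX, 90848 to 99512 CPM in R6/2 control, 85259 to 108686 CPM in WT shTRAX and 99611 to 101775 CPM in WT control libraries. Red blood cell markers (4 of 5 tested), oligodendrocyte markers (3 of 3) and meningeal and fibroblast markers (3 of 4) gave no call. Red blood cell markers summed to 124 to 251 CPM in R6/2 shTRAX, 115 to 236 CPM in R6/2 control, 158 to 246 CPM in WT shTRAX and 168 to 211 CPM in WT control libraries, and no marker of any of these lists was at 0 in a whole group. Oligodendrocyte markers summed to 6023 to 10483 CPM in R6/2 shTRAX, 9877 to 10836 CPM in R6/2 control, 9009 to 10570 CPM in WT shTRAX and 8823 to 10555 CPM in WT control libraries, and those of meningeal markers lay between 137 and 217 CPM over all 12 libraries.

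The miRNAs whose levels followed those of the lead arms most closely over the 12 libraries, of the 689 tested, are given as a description, since all points share library, group and scaling. For miR-126a-3p they were miR-672-3p (Spearman rho 0.94) and miR-1224-5p (0.93), and for miR-143-3p miR-879-5p (0.78) and miR-199a-3p (0.71). For miR-145a-5p they were miR-1264-3p (0.91) and miR-495-5p (0.89), for miR-195a-5p miR-181d-5p (0.93) and miR-540-3p (0.92), and for miR-497a-5p miR-154-5p (0.96) and let-7f-2-3p (0.92). Pearson r of log2 CPM was lower for some, at 0.37 for miR-143-3p with miR-199a-3p and 0.69 for miR-195a-5p with miR-540-3p. It was 0.81 to 0.94 for the other pairs. Without R6/2 shTRAX replicate 3 the 10 rho values ran from 0.72 to 0.96. Members were left out of this ranking by rule, so how closely they followed each other was not examined.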

How the data were processed

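The authors deposited raw read counts per mature miRNA and precursor, and RPM values that they scaled to a common column total, per the file headers. The RPM served for limma alone. The authors' deposited signed fold score and p-value columns were read as their own results. The submitters' processing notes name bcl2fastq 2.20, Trimmomatic and build GRCm38. The library kit adds molecular identifiers, per the labels' protocols, and RNA came from TRIzol or a column kit. Not given in the sources used here are the kit of each sample, the aligner, the counter and any use of the identifiers. No per-sample column lacked a sample. Of several precursor rows (81 of 1915 names) the one of highest mean was used. Members have 1 row each.

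The main test was edgeR's quasi-likelihood test (4.0.16, R 4.3.3) on these counts, with TMM scaling, a filterByExpr minimum count of 10 and Benjamini-Hochberg adjustment over all tested. Genotype comparisons and the interaction used 12 libraries, shTRAX effects the 6 of a genotype. DESeq2 1.42.0 and limma 3.58.1 were alternatives. Scripts were tested on simulated data. Log2 ratios used counts + 1 and exact permutation. GC offsets used the mature sequence where RefSeq lists it, otherwise the hairpin's nearer side. All members are named, with the 2 miRNAs of highest rho per lead arm and up to 4 per list by p. Members and lists were chosen with earlier results of these data known.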

Additional observations from a re-analysis of the deposited data

How the results depend on the processing

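Over both AAVs, the calls of both arms of miR-195a held under every alternative run. miR-126a-3p lost its call there with no filter on low counts (adjusted p = 0.129) and with limma (0.055 and 0.0541), and miR-497a-5p with total count scaling (0.0751), relative log expression scaling (0.0501), no filter (0.0502) and limma (0.119 and 0.12). The number of members called over both AAVs (4) was 2 with no filter (8.82% of all miRNAs called), with limma on log2(RPM + 1) (22.1%) and with limma on log2(RPM + 0.1) (21%), and 3 to 7 when 1 library was left out (16.9% to 36.4%). Under control AAV (1 called) it was 0 with total count scaling (12%), no filter (3.19%) or the limma fits (12.5% and 11.8%), 2 with every precursor row kept (12.8%), 4 with DESeq2 (15.4%), 8 with only the compared groups in the fit (35.2%), and 0 to 8 when 1 library was left out (5.67% to 30%). Under shTRAX AAV (2 called) it was 0 with no filter (4.51%) or only the compared groups (0.308%), and 1 to 4 when 1 library was left out (5.41% to 20.1%). For shTRAX in WT (0 called) it was 0 to 1 when 1 library was left out (0% to 8.41%). Leaving out 1 library leaves 2 in its group, which are assumed to vary like the other groups. The cause of these changes was not tested.

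Same-numbered libraries of different groups deviated together in 5 of 18 pairs at a correlation over 0.1 (range -0.341 to 0.301, median -0.062), so the numbers were not taken to pair samples. With the replicate number as a block, members called under control AAV were 0 (8.56% of all miRNAs), and over both AAVs 3 (18.4%), with the call of miR-497a-5p lost (adjusted p = 0.0658). Swapping labels only within a replicate number, the block left the 3 called ratios at 0.18 for the arms of miR-145a, -0.29 for miR-143-3p to miR-126a-3p and 0.53 for miR-195a-5p to miR-143-3p, each with adjusted p = 0.167, the lowest that 64 arrangements give here.

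Differences near 0 changed sign under some settings, with no adjusted p under 0.05 on either side. Against WT, miR-143-3p under control AAV was -0.017 with total count scaling and -0.031 with limma. miR-126a-5p under shTRAX AAV was -0.026 and -0.10 in the same settings, and miR-145a-3p over both AAVs was -0.017, -0.030 and -0.031. For shTRAX in R6/2, miR-145a-5p was -0.013 with total count scaling and with no filter, -0.0031 and -0.0032 with limma and -0.15 with GC offsets. miR-145a-3p was 0.018 with every precursor row and 0.085 with GC offsets. For shTRAX in WT, miR-126a-3p was -0.0030 with no filter, miR-195a-5p was 0.0064 with total count scaling and 0.016 with a minimum count of 50, and miR-195a-3p was 0.0010, 0.019 and, with GC offsets, 0.033. The difference of the effects for miR-126a-3p was -0.0005 with relative log expression scaling and DESeq2, -0.018 with total count scaling, -0.046 with no filter, -0.0011 with limma and -0.0060 with every precursor row, and that for miR-195a-3p was -0.0061 with GC offsets.

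When 1 library was left out, the member differences that changed sign, and the ratios that changed sign or call, had these ranges. Members whose call changed without a change of sign are named with their results above, and their ranges are not listed here. Against WT under shTRAX AAV they were -0.16 to 0.32 for miR-126a-5p, -0.21 to 0.025 for miR-143-3p, -0.39 to 0.099 for miR-143-5p, -0.15 to 0.042 for miR-145a-3p and -0.12 to 0.62 for miR-497a-3p, and over both AAVs -0.064 to 0.048 for miR-143-3p. For shTRAX in R6/2 they were -0.16 to 0.062 for miR-143-3p, -0.47 to 0.0005 for miR-143-5p, -0.12 to 0.078 for miR-145a-3p, -0.066 to 0.12 for miR-145a-5p and -0.35 to 0.14 for miR-497a-5p. For shTRAX in WT they were -0.036 to 0.048 for miR-126a-3p, -0.11 to 0.049 for miR-195a-5p and -0.086 to 0.054 for miR-195a-3p, and the difference of the effects for miR-126a-3p was -0.083 to 0.079. Arm ratios of R6/2 minus WT were -0.095 to 0.16 for miR-126a, 0.16 to 0.21 for miR-145a and -0.27 to 0.0076 for miR-497a. Between loci they were -0.33 to -0.21 for miR-143-3p to miR-126a-3p, 0.19 to 0.31 for miR-195a-5p to miR-126a-3p and 0.48 to 0.57 for miR-195a-5p to miR-143-3p. For shTRAX minus control they were -0.081 to 0.11 for the arms of miR-143, -0.11 to 0.064 for those of miR-195a, -0.24 to 0.040 for those of miR-497a, -0.11 to 0.013 for miR-143-3p to miR-126a-3p and -0.015 to 0.10 for miR-195a-5p to miR-126a-3p. Depth limits miR-497a-3p most, at 14 to 53 counts per library.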
